A study of Homo sapiens with 6 samples.

Results

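The distal long arm of human chromosome 19 carries a dense array of zinc finger genes, and the 97 genes described here are those of them whose name is ZNF followed by a number and whose gene start lies at position 50000000 of GRCh38 or beyond. The rule reads name and position and no measured value of the 78932 genes of the count table, and it was set with earlier results of these data known. The first of them in position was ZNF473, which starts at 50025714, and the nearest ZNF gene left outside was ZNF114, which starts at 48270081. The libraries came from T24, a cell line from a human urothelial carcinoma of the bladder, transfected with a control siRNA (siNC, 3 cultures) or with siRNA against TRIM28 (siTRIM28, 3 cultures). No other allele or agent was named for either group, all 6 cultures carried the same batch number, and a transfection is a transient knockdown. Which TRIM28 siRNA was used and the time after transfection are not given in the sources used here.

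Most ZNF proteins of chromosome 19 pair an array of C2H2 fingers, each a small zinc-held module that reads a few bases of DNA, with a KRAB domain. The KRAB domain binds TRIM28 (also called KAP1), a corepressor that brings in the histone methyltransferase SETDB1 and HP1 proteins, and many KRAB zinc finger proteins direct this complex to transposable elements. Some of them, among them ZNF274, also bind the zinc finger genes themselves, and TRIM28 lies in the same chromosome arm as the genes described here. The comparison asks how the transcripts of these genes stood after the knockdown of that shared partner.

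Translated from GENCODE v29 transcripts, the 97 proteins held 3 to 26 C2H2 fingers with a median of 12, and 81 of them held a match to the KRAB box. A SCAN domain match, a module through which such proteins pair with each other, was found in 3 (ZNF444, ZNF274 and ZNF446). The genes fell into 4 blocks when a gap of more than 500000 bases between starts was taken as a border. ZNF473 stood alone, 39 genes from ZNF175 to ZNF331 spanned 2.01 Mb, 16 genes from ZNF628 to ZNF835 spanned 1.20 Mb, and 41 genes from ZNF264 to ZNF446 spanned 1.29 Mb and ended next to TRIM28.

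Promoter sequence was taken from RefSeq (GRCh38.p14, the first listed start of each gene, 250 bases before to 50 after it), in which 84 of the 97 genes had an entry. The heptamer CCGGAAG, the core recognised by ETS family factors, was present on either strand in 51 of these 84 promoters (60.7%). It was present in 10.7% of the promoters of all 27305 genes of that table and in 19.4% of the 11033 promoters matched to tested genes. The heptamer contains a CpG, and the members' promoters had a median of 23.5 CpG and 62.3% GC. Over all genes of that table the medians were 14 CpG and 58.3% GC, and the part of base composition in these shares was not tested. Among other ZNF genes the share was 38.4% on the short arm of chromosome 19, 26.4% on the proximal long arm and 36.9% on other chromosomes, and among the other tested genes of the same interval it was 27.1%. The stretches below show promoters of 12 of the called genes, with and without the heptamer, from 60 bases before to 20 after the start, with CCGGAAG or its reverse complement CTTCCGG in capitals. The first set is from the second block.
ZNF616, chr19:52139919-52139998, minus strand: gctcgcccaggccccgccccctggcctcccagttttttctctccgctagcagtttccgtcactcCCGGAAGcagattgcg
ZNF766, chr19:52269527-52269606, plus strand: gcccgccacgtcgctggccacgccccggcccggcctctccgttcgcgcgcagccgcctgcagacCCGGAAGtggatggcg
ZNF160, chr19:53103403-53103482, minus strand: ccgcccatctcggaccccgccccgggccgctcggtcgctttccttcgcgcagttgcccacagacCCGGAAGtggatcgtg
ZNF836, chr19:52171602-52171681, minus strand: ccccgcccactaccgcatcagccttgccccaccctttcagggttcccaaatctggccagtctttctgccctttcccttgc
ZNF613, chr19:51927412-51927491, plus strand: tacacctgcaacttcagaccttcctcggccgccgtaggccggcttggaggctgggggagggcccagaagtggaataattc

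In 3 of these 5 stretches the heptamer read CCGGAAG along the gene and began at the fifth transcribed base. Transcribed bases are counted here and below from the RefSeq start, which need not be the end of the gene in the count table. ZNF836, the neighbour of ZNF616, and ZNF613 had no match here or elsewhere in their promoters. The second set is from the fourth block, except for ZNF583 of the third block.
ZNF549, chr19:57527296-57527375, plus strand: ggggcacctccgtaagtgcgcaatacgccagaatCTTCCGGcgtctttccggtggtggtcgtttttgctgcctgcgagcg
ZNF550, chr19:57559844-57559923, minus strand: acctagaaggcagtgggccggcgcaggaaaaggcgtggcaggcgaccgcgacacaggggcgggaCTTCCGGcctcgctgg
ZNF551, chr19:57681917-57681996, plus strand: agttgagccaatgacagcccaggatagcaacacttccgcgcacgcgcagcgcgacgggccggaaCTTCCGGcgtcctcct
ZNF134, chr19:57614182-57614261, plus strand: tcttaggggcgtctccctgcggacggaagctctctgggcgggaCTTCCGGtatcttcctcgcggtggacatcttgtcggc
ZNF274, chr19:58183001-58183080, plus strand: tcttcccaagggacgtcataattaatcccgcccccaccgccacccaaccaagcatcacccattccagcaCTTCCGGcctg
ZNF8, chr19:58278895-58278974, plus strand: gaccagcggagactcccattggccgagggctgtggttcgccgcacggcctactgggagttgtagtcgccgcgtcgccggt
ZNF583, chr19:56403954-56404033, plus strand: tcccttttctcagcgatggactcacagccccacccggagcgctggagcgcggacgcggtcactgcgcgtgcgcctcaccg

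In 5 of these 7 stretches the heptamer lay on the other strand and read CTTCCGG along the gene. ZNF8 and ZNF583 had no match in any part of the promoters searched. The listed starts of ZNF583 and ZNF613 lie inside their spans in the count table, which begin at 56397966 and 51927147. Promoters at those ends were not searched. By fewer bases, the listed starts of ZNF549, ZNF551, ZNF134 and ZNF274 also lie inside their spans, and that of ZNF160 lies outside its span. The 12 stretches are examples, and the counts over all members follow. Over all members, the count of matches by strand differed between the blocks. In the second block the match lay on the gene strand in 20 of 20 promoters that held it, and in 16 of these it began within the first 15 transcribed bases. In the fourth block 25 promoters held it, on the other strand only in 17, on the gene strand only in 5 and on both in 3, and the median first base of the matches on the other strand lay 17.5 bases before the start. The 6 matching promoters of the third block all had it on the other strand, 2 of them on both. Within the 60 bases before to 20 after the start alone, 42 of the 84 promoters held the heptamer (50%), against 5.81% of all genes. Over all genes of the table the strands were nearly even, with 1354 promoters matching on the gene strand only and 1281 on the other strand only. Of the other motifs searched on both strands, GGGCGG (the GC box) was in 73.8% of the members' promoters, 44.6% of all promoters, 69.6% of those of tested genes and 82.2% of those of short-arm ZNF genes. CCAAT was in 47.6% of the members' promoters, 35.7% of all, 36.9% of those of tested genes and 82.2% of those of short-arm ZNF genes. TATAAA was in 1.19% of the members' promoters, 11.95% of all, 5.58% of those of tested genes and 4.11% of those of short-arm ZNF genes. GCGCATGC (2.38% against 3.27% of all promoters and 5.62% of those of tested genes), TGACGTCA (2.38% against 1.98% and 3.31%), GCCATNTTG (8.33% against 3.04% and 5.24%) and GAAANNGAA (3.57% against 8.29% and 6.46%) were rare in each set. No motif of the list is contained in another.

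**Figure D1:**
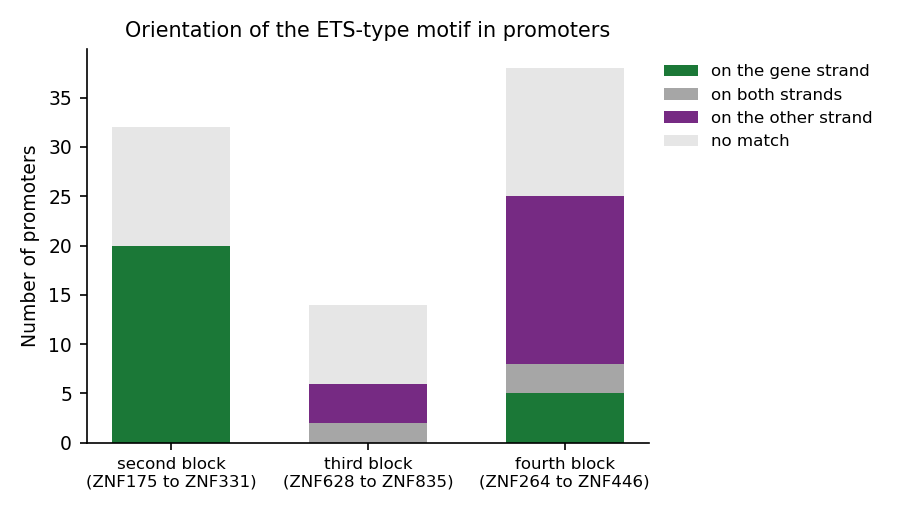
Bars count the promoters with a RefSeq entry in the second block, the third block and the fourth block by the strand on which the ETS-type heptamer lay. The second block had it on the gene strand in 20 promoters and on the other strand in none, and the fourth block had it on the other strand only in 17.

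The libraries held 12989362 to 13942383 counts in siNC and 11712623 to 14018052 in siTRIM28, and levels are given as CPM after TMM scaling of the library totals. Within siNC the libraries 1 and 2, and within siTRIM28 the libraries 2 and 3, were much closer to each other than to the remaining library. The chi-square per degree of freedom was 1.08 and 1.22, against 4.17 to 6.25 for the other pairs. By this chi-square more than sampling noise still separated them (p = 2.8e-14 and 2.7e-96). Over so many genes such a p cannot show that the close libraries came from independent cultures. All 6 were kept, since the labels call them biological replicates. If the close pairs are not independent, the p-values below are too small. Mitochondrial genes held 4.95% to 5.29% of the counts in siNC and 5.72% to 6.29% in siTRIM28, and the part of this in the results was not tested. Of 19 urothelial and epithelial markers 7 passed the filter on low counts, KRT8 (103 CPM in siNC) and KRT18 (85.8 CPM) being the most abundant. KRT20 and UPK1B were at 0 in every library, EPCAM, CDH1 and GATA3 were under 1 CPM, and VIM, a mesenchymal marker, stood at 1099 CPM in siNC and 1384 CPM in siTRIM28. The summed level of the urothelial and epithelial list was 199 to 208 CPM in siNC and 221 to 227 CPM in siTRIM28, with 4 of the 7 tested markers higher. The summed level of 4 mesenchymal markers was 1559 to 1605 against 1811 to 1924 CPM, that of 4 fibroblast and muscle markers 7.74 to 8.43 against 7.69 to 8.92 CPM (COL1A1 higher, 0.930 against 3.27 CPM, and ACTA2 lower, 7.09 against 4.80 CPM), and that of the endothelial markers PECAM1 and CDH5 0.288 to 0.469 against 0.712 to 0.926 CPM, with CDH5 at 0. Of the leukocyte markers, CD3E was at 0 and only CD68, a gene not limited to leukocytes, was tested (347 against 350 CPM). The part of these shifts in the results below was not tested. TRIM28, the targeted gene, had 1419, 1393 and 1382 counts in siNC and 130, 96 and 109 in siTRIM28. Its level fell from 103 ± 4.06 to 8.84 ± 0.656 CPM (SD, n = 3 each; log2 fold change -3.54 ± 0.07 (SE), adjusted p = 1.0e-10).

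Levels spanned a wide range among the 97 genes. Per kilobase of exon, the mean level in siNC (RPKM, the CPM divided by the exon length in kilobases) had a median of 0.639 over the 97 genes and reached 6.41 in ZNF83. Next came ZNF581 with 6.29, ZNF480 with 6.28, ZNF787 with 5.51 and ZNF580 with 5.37 RPKM. With SDs of 0.369 to 0.610 RPKM over 3 libraries, the first 3 of these levels lay within 1 SD of each other, as did the last pair. ZNF581 was at 9.62, 11.2 and 10.0 CPM in siNC and 8.97, 9.51 and 9.26 CPM in siTRIM28 (log2 fold change -0.16, 95% interval -0.37 to 0.06, adjusted p = 0.237), and its groups did not overlap. ZNF787 was at 21.97, 19.2 and 19.8 CPM in siNC and 23.0, 23.2 and 19.9 CPM in siTRIM28 (log2 fold change 0.12, 95% interval -0.06 to 0.30, adjusted p = 0.264), and its groups overlapped. A minimum of 10 counts in any 3 of the 6 libraries was asked for, which left 78 genes for the test. The 19 that missed it included ZNF677, which had no count in any library. Of the others, 17 had at most 13 counts in any library, and ZNF416 had 26, 12 and 9 counts in siNC and 5, 5 and 6 in siTRIM28.

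**Figure D2:**
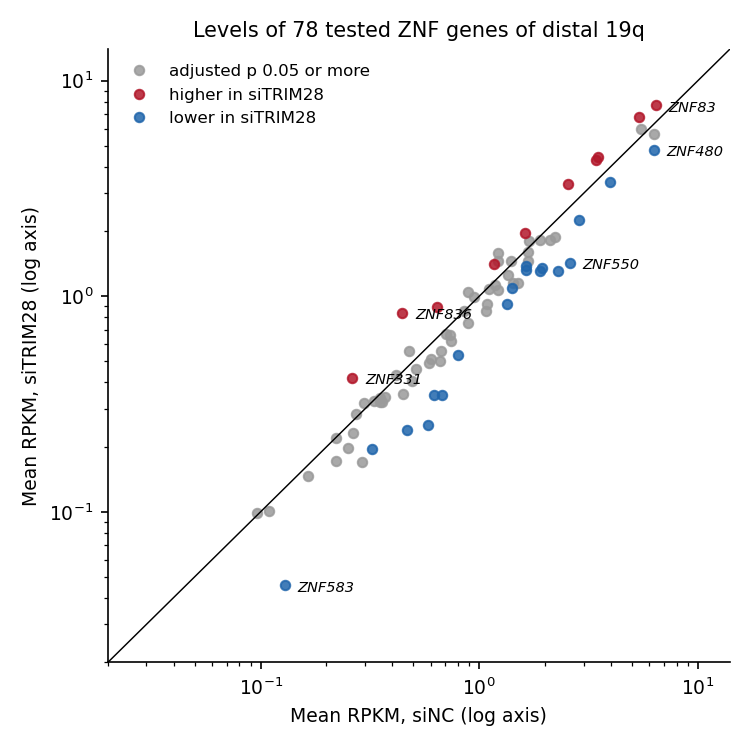
Each point is 1 of the 78 tested genes at its mean RPKM in siNC and in siTRIM28 (both axes log scaled), coloured by call, with the diagonal marking equal levels. The levels ran from 0.0964 RPKM to 6.41 RPKM in siNC, and most points lay close to the diagonal.

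Of the 78 genes, 28 differed between siTRIM28 and siNC (35.9%), where 41.8% of all 18474 tested genes did (edgeR quasi-likelihood test, Benjamini-Hochberg adjusted p under 0.05 over all tested genes). In siTRIM28 10 were higher (12.8%, against 21.3% of all tested genes) and 18 were lower (23.1%, against 20.5%). With a log2 fold change of at least 0.58 as a second threshold, 2 were higher (2.56%, against 9.51%) and 9 were lower (11.5%, against 7.51%). In this fit the share of calls was no larger than the background. The median of the mean counts was 59.75 over the 78 genes and 136 over all tested genes. The part of this lower depth in the share was not tested. Without siNC replicate 3, 18 genes were called (11 of them lower), where 35.6% of all tested genes were called. Without siNC replicate 1 the higher genes numbered 6, with 34.5% of all tested genes called. DESeq2 called 16 genes, 7 higher and 9 lower, and 31.8% of all tested genes. The 3 values of each group did not overlap in 34 of the 78 genes, 12 with siTRIM28 above and 22 with it below, against 52.0% of all tested genes in either direction. The fold change was negative in 56 genes and positive in 22, with a median of -0.16 on the log2 scale against 0.02 over all tested genes. Fewer cells and less RNA per cell cannot be told apart in such bulk samples.

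The summed level of the 97 genes moved little. It was 578, 591 and 601 CPM in siNC and 562, 576 and 571 CPM in siTRIM28, a mean of 590 ± 11.3 against 570 ± 6.99 (SD, n = 3 each). This is a change of -3.42%, with every siTRIM28 library below every siNC library, and an exact two-sided permutation test gave p = 0.1, the smallest p that 3 against 3 libraries allow. Library by library, the median log2 ratio of the 78 genes to the siNC mean was -0.21 in siTRIM28 replicate 1 and -0.08 and -0.09 in the other siTRIM28 libraries, and between -0.03 and 0.05 in siNC. Without siTRIM28 replicate 1, 23 genes were called, 21 of them among the 28, and the median was -0.13. In that fit 44.7% of all tested genes were called.

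**Figure D3:**
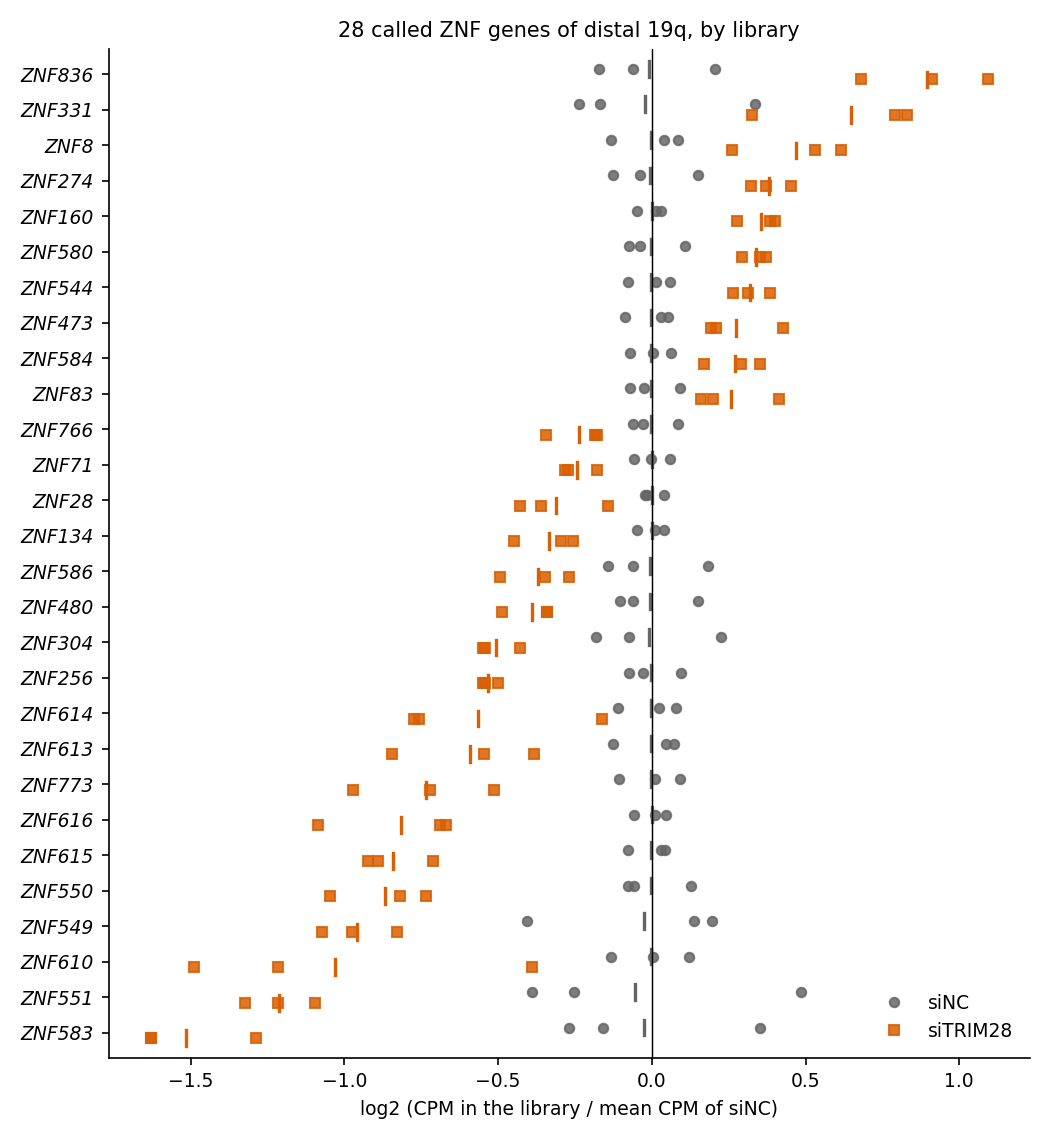
Each row is 1 of the 28 called genes, with the 3 siNC libraries (grey circles) and the 3 siTRIM28 libraries (orange squares) placed at the log2 ratio of their CPM to the siNC mean and short bars at the group means. The groups stood apart in every row but that of ZNF331.

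The falls of the largest size were in genes of low counts. ZNF583, on the plus strand of chromosome 19 from 56397966 to 56436035 and coding for a KRAB protein of 12 fingers, was at 0.933, 0.864 and 1.33 CPM in siNC and 0.427, 0.337 and 0.337 CPM in siTRIM28 (log2 fold change -1.46 ± 0.36 (SE), adjusted p = 0.00609). It had 12 to 17 counts in siNC and 4 to 6 in siTRIM28, so all siTRIM28 libraries lay below all siNC libraries on few reads. ZNF551, on the plus strand from 57681969 to 57717301 and coding for a KRAB protein of 14 fingers, was at 2.30, 2.09 and 3.83 CPM in siNC and 1.28, 1.09 and 1.18 CPM in siTRIM28 (log2 fold change -1.18 ± 0.29 (SE), adjusted p = 0.00585). Its siNC libraries spread widely, replicate 3 being the highest, while the siTRIM28 libraries lay close together beneath them. An entry that covers ZNF551 on the same strand, ENSG00000269026, did not pass the test (-0.39 ± 0.21, adjusted p = 0.164). ZNF610 was at 1.51, 1.66 and 1.80 CPM in siNC and 0.712, 0.589 and 1.26 CPM in siTRIM28 (log2 fold change -0.95 ± 0.30 (SE), adjusted p = 0.0233), with siTRIM28 replicate 3 just under the siNC range, and its call was lost without siNC replicate 2 or 3 and without siTRIM28 replicate 1 or 2. ZNF583 and ZNF551 kept their calls without any 1 library.

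Among the falls of more than 0.58 on the log2 scale, those with the most counts were in a neighbouring pair of the fourth block, ZNF550 and ZNF549, and in ZNF616. ZNF550, on the minus strand from 57535257 to 57559863, was at 17.4, 19.7 and 17.1 CPM in siNC and 10.3, 10.9 and 8.75 CPM in siTRIM28 (log2 fold change -0.86 ± 0.10 (SE), adjusted p = 2.58e-05). ZNF549, on the plus strand from 57527325 to 57557542, was at 4.74, 6.92 and 7.19 CPM in siNC and 2.99, 3.54 and 3.20 CPM in siTRIM28 (log2 fold change -0.95 ± 0.19 (SE), adjusted p = 0.00171). The genes run towards each other and their spans overlap by 22286 bases, the libraries were made with a stranded kit, and whether strand was used in the counting is not stated, so reads of one could have been counted to the other. Every siTRIM28 library lay below every siNC library in both genes, and both kept their calls in every alternative fit. ZNF773, the ZNF gene before ZNF549 along the chromosome, was at 2.66, 2.45 and 2.81 CPM in siNC and 1.85, 1.599 and 1.35 CPM in siTRIM28 (log2 fold change -0.71 ± 0.21 (SE), adjusted p = 0.0167). The call of ZNF773 was lost without siNC replicate 3 or siTRIM28 replicate 3.

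ZNF616 and ZNF836 are neighbours on the minus strand of the second block and moved in opposite directions. ZNF616, from 52113091 to 52139938 and coding for a KRAB protein of 21 fingers, was at 11.6, 10.8 and 11.3 CPM in siNC and 6.98, 5.30 and 7.07 CPM in siTRIM28 (log2 fold change -0.80 ± 0.12 (SE), adjusted p = 2.56e-04). ZNF836, from 52153864 to 52171621 and coding for a KRAB protein of 24 fingers, was at 1.87, 2.02 and 2.42 CPM in siNC and 4.48, 3.96 and 3.37 CPM in siTRIM28 (log2 fold change 0.92 ± 0.19 (SE), adjusted p = 0.00235), the largest rise of the set. The groups did not overlap in either gene. In the first set of stretches above ZNF616 had the ETS-type heptamer and ZNF836 did not. In the same set ZNF160 had it and rose, and ZNF613 lacked it and fell. An unnamed gene on the same strand, ENSG00000267827, overlaps the spans of both and rose too (log2 fold change 0.64 ± 0.23, adjusted p = 0.040). PPP2R1A, on the opposite strand, overlaps the ZNF836 span by 686 bases and fell (-0.58 ± 0.07, adjusted p = 4.5e-05). Of the 75-base windows of the longest ZNF836 transcript 11.8% were also in transcripts of other genes.

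Other falls of the second block were in ZNF615, ZNF613 and ZNF614, KRAB proteins of 19, 12 and 10 fingers. ZNF615 was at 2.87, 3.10 and 3.13 CPM in siNC and 1.64, 1.599 and 1.85 CPM in siTRIM28 (log2 fold change -0.84 ± 0.19 (SE), adjusted p = 0.00383). ZNF613 was at 3.23, 3.17 and 2.81 CPM in siNC and 1.71, 2.36 and 2.10 CPM in siTRIM28 (log2 fold change -0.59 ± 0.19 (SE), adjusted p = 0.0285). ZNF614 was at 7.97, 6.99 and 7.66 CPM in siNC and 4.41, 6.73 and 4.46 CPM in siTRIM28 (log2 fold change -0.54 ± 0.17 (SE), adjusted p = 0.0218). Every siTRIM28 library lay below every siNC library in the 3 genes, narrowly so for ZNF614 in siTRIM28 replicate 2. The call of ZNF613 was lost without siNC replicate 1 or 2, and that of ZNF614 without siNC replicate 1 or 3, and both without siTRIM28 replicate 1 or 3, while ZNF615 kept its call without any 1 library. ZNF480, among the most abundant of the set, was at 28.3, 33.8 and 29.2 CPM in siNC and 21.7, 23.99 and 23.99 CPM in siTRIM28 (log2 fold change -0.39 ± 0.08 (SE), adjusted p = 0.00244), a smaller change with more counts behind it.

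The remaining lower genes changed by less than 0.58. ZNF256 was at 4.09, 3.96 and 4.46 CPM in siNC and 2.85, 2.95 and 2.86 CPM in siTRIM28 (log2 fold change -0.53 ± 0.16 (SE), adjusted p = 0.0175). ZNF304 was at 7.90, 8.50 and 10.5 CPM in siNC and 6.12, 6.65 and 6.14 CPM in siTRIM28 (log2 fold change -0.50 ± 0.13 (SE), adjusted p = 0.00996). In both, the siTRIM28 libraries lay close to each other, and ZNF256 lost its call without siNC replicate 3. ZNF586 (log2 fold change -0.37, adjusted p = 0.045), ZNF134 (-0.34, adjusted p = 0.0061), ZNF28 (-0.30, adjusted p = 0.046), ZNF71 (-0.25, adjusted p = 0.037) and ZNF766 (-0.24, adjusted p = 0.021) completed the 18. Of these 5, ZNF134 kept its call without any 1 library, ZNF766 lost it without siNC replicate 2, and ZNF586, ZNF28 and ZNF71 each lost it in 5 of the 6 analyses that left out 1 library. ZNF71 overlaps ZIM2-AS1 (-0.25, adjusted p = 0.239) and ENSG00000293626 (-0.28, adjusted p = 0.172) on the same strand, and neither passed the test. ZNF28 shares 19591 bases of span with ZNF468 on the same strand, which did not pass either (-0.07, adjusted p = 0.652). Whether reads of these entries mixed was not tested.

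Among the higher genes, 3 neighbours of the fourth block rose together, ZNF274, ZNF544 and ZNF8, which follow each other on the plus strand over 120 kb. ZNF274, a KRAB and SCAN protein with 5 fingers that is known to bind the ends of other ZNF genes and to bring in TRIM28 and SETDB1 there, was at 19.5, 20.7 and 23.5 CPM in siNC and 27.5, 26.5 and 29.04 CPM in siTRIM28 (log2 fold change 0.39 ± 0.08 (SE), adjusted p = 0.00227). ZNF544 was at 25.7, 24.9 and 23.4 CPM in siNC and 32.2, 29.6 and 30.6 CPM in siTRIM28 (log2 fold change 0.32 ± 0.07 (SE), adjusted p = 0.00227). ZNF8 was at 6.17, 5.98 and 5.32 CPM in siNC and 6.98, 8.92 and 8.42 CPM in siTRIM28 (log2 fold change 0.47 ± 0.14 (SE), adjusted p = 0.0155). The divergent transcript ZNF8-DT, which runs back across 19978 bases of ZNF544, was at 29.8, 27.9 and 29.2 CPM in siNC and 42.1, 39.0 and 36.4 CPM in siTRIM28 and rose as well (0.44 ± 0.07 on the log2 scale, adjusted p = 3.84e-04). Another entry of the table, ENSG00000283515, spans ZNF544 and ZNF8 on the same strand with more counts than either and rose by less (0.17 ± 0.06, adjusted p = 0.042). ZNF8-ERVK3-1, on the same strand, overlaps ZNF8 by 23826 bases with 2684 counts in all, against 541 for ZNF8. It also rose by less than ZNF8 (0.20 ± 0.06, adjusted p = 0.023). How reads were shared among these overlapping entries is not given in the sources used here, so the rise of each gene by itself is uncertain. ZNF8 lost its call without siNC replicate 3 and without siTRIM28 replicate 2 or 3.

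ZNF160, on the minus strand from 53066606 to 53103378 and coding for a KRAB protein of 20 fingers, was at 28.6, 29.9 and 30.3 CPM in siNC and 35.9, 38.6 and 39.1 CPM in siTRIM28 (log2 fold change 0.35 ± 0.06 (SE), adjusted p = 8.06e-04), the rise with the smallest adjusted p. ZNF331, an imprinted gene in several tissues, was at 1.94, 2.88 and 2.03 CPM in siNC and 4.06, 2.86 and 3.96 CPM in siTRIM28 (log2 fold change 0.67 ± 0.22 (SE), adjusted p = 0.0266). In ZNF331 the groups overlapped, since siTRIM28 replicate 2 lay just below siNC replicate 2, and the call was lost without siNC replicate 1 or 3 and without siTRIM28 replicate 1 or 3. ZNF580, a short protein of 3 fingers without a KRAB match, was at 13.3, 13.6 and 15.1 CPM in siNC and 17.2, 18.1 and 17.8 CPM in siTRIM28 (log2 fold change 0.34 ± 0.08 (SE), adjusted p = 0.00351). ZNF581 shares 7360 bases of span with ZNF580 on the same strand and, as given above, did not pass the test.

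ZNF473, whose product takes part in the processing of histone transcripts, was at 10.6, 11.5 and 11.6 CPM in siNC and 12.8, 12.96 and 15.1 CPM in siTRIM28 (log2 fold change 0.28 ± 0.09 (SE), adjusted p = 0.0297). VRK3, on the opposite strand, overlaps ZNF473 by 223 bases and rose more (0.67 ± 0.08, adjusted p = 3.53e-05). ZNF83, with the highest RPKM of the set, was at 40.4, 39.0 and 43.7 CPM in siNC and 54.6, 47.1 and 45.9 CPM in siTRIM28 (log2 fold change 0.26 ± 0.08 (SE), adjusted p = 0.0171). An entry on the same strand, ENSG00000269825, covers its whole span with 4978 counts in all, against 3534 for ZNF83, and rose too (0.20 ± 0.06, adjusted p = 0.017). ZNF584 was at 8.47, 8.93 and 9.30 CPM in siNC and 10.9, 11.4 and 10.0 CPM in siTRIM28 (log2 fold change 0.28 ± 0.10 (SE), adjusted p = 0.0388). Its divergent transcript ZNF584-DT was at 9.62, 9.005 and 10.2 CPM in siNC and 7.47, 6.90 and 7.32 CPM in siTRIM28 and fell (-0.40 ± 0.11 on the log2 scale, adjusted p = 0.00920). The calls of ZNF473 and ZNF83 were lost without siNC replicate 1 or 2, that of ZNF473 also without siNC replicate 3 or siTRIM28 replicate 3, and that of ZNF584 in 5 of the 6 analyses that left out 1 library.

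By position, calls in each direction lay in all of the larger blocks. The second block had 4 higher and 8 lower of 32 tested genes (median log2 fold change -0.15), the third 1 and 2 of 12 (-0.08), and the fourth 4 and 8 of 33 (-0.24). Over all tested genes 21.3% were higher and 20.5% lower (median 0.02), and differences of the blocks from these shares were not tested. Runs of neighbours called in the same direction held at most 3 genes: ZNF766, ZNF480 and ZNF610 lower, ZNF773, ZNF549 and ZNF550 lower, and ZNF274, ZNF544 and ZNF8 higher. Of 9 adjacent pairs of called genes, 5 were lower together, 2 were higher together and 2 were opposite. Over 74 pairs of neighbouring tested genes of a block, the log2 fold changes of the neighbours gave small correlations (Pearson r = 0.039, Spearman rho = 0.075, a description over genes that share the same 6 libraries).

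The genes that start within 300000 bases of the TRIM28 start did not show a fall of the size of TRIM28. ZNF8 and ZNF584 rose (above), ZNF837 had 3 to 10 counts and was not tested, and 4 genes did not pass the test. ZNF497 was at 1.01, 1.30 and 1.09 CPM in siNC and 0.570, 0.337 and 1.09 CPM in siTRIM28 (log2 fold change -0.77, 95% interval -1.58 to 0.05, adjusted p = 0.122), and it was called lower without siTRIM28 replicate 3. ZNF132 was at 0.862, 0.936 and 1.09 CPM in siNC and 1.21, 0.421 and 0.926 CPM in siTRIM28 (log2 fold change -0.14, 95% interval -0.92 to 0.64, adjusted p = 0.784). The groups of ZNF132 overlapped, with siTRIM28 replicate 1 the highest of all 6 libraries. ZNF324 was at 3.16, 2.88 and 2.35 CPM in siNC and 2.42, 2.10 and 2.36 CPM in siTRIM28 (log2 fold change -0.28, 95% interval -0.71 to 0.14, adjusted p = 0.264). ZNF446 was at 3.45, 3.03 and 3.05 CPM in siNC and 2.14, 2.36 and 3.45 CPM in siTRIM28 (log2 fold change -0.27, 95% interval -0.73 to 0.18, adjusted p = 0.320). The groups overlapped in both. ZNF324 and ZNF446 shared 31.3% and 35.0% of the 75-base windows of their longest GENCODE v29 transcripts with other genes, with each other the most. Their spans in the count table did not overlap, and whether their counts mix was not tested.

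Features of the proteins and genes were compared with the calls as a description. Among 65 tested genes with a KRAB match 7 were higher and 17 lower (median log2 fold change -0.16). Among 13 without one 3 were higher and 1 lower (median 0.06). Of all tested genes 21.3% were higher and 20.5% lower (median 0.02), and the split by KRAB match was not tested. The genes without a KRAB match that were called were ZNF473, ZNF580, ZNF83 and ZNF134. The ETS-type heptamer was in the promoters of 5 of 9 higher genes, 9 of 15 lower genes and 28 of 41 genes that were not called. The median log2 fold change was -0.16 in 42 genes with it and -0.25 in 23 without it. Over 78 genes the fold change gave small correlations with the number of fingers (Pearson r = -0.016), the level in siNC (r = 0.14, log2 RPKM), exon length (r = 0.15) and the distance from TRIM28 (r = -0.091), and over 65 genes with promoter GC content (r = 0.20).

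Of the 50 tested genes that were not called, 38 had a negative and 12 a positive fold change. In 23 of them the 95% interval lay within 0.58 on both sides of 0, so a change of that size lay outside the interval, and in 27 it reached 0.58 or beyond, so a change of that size remained possible at this depth. ZNF579 (0.39, adjusted p = 0.065) and ZNF816 (-0.38, adjusted p = 0.067) lay just outside the threshold, and their groups did not overlap. The longest GENCODE v29 transcripts of ZNF468 and ZNF320 shared 99.2% and 99.5% of their 75-base windows with other genes, with each other the most. Their spans in the count table did not overlap. Whether their values (-0.07 and -0.16) can be told apart was not tested. In 75 of the 97 genes the span overlapped another entry of the table. Among the 16 tested genes whose span overlapped none, 3 were lower, none higher and the median was -0.19. Of all tested genes 20.5% were lower and 21.3% higher.

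The ZNF genes of other places were measured in the same libraries. On the short arm of chromosome 19, 14 of 64 tested ZNF genes were higher and 7 lower (median log2 fold change 0.12). On the proximal long arm 1 of 55 was higher and 14 were lower (-0.26), and on other chromosomes 32 of 203 were higher and 45 lower (-0.08). The 129 other tested genes of the distal interval had 32 higher and 17 lower (0.06). Of 7 tested zinc finger genes of the interval with other names (ZSCAN, ZFP, ZIM and the like) 1 was higher and 2 were lower (-0.36). All tested genes had 21.3% higher and 20.5% lower (0.02). The distal 19q genes thus lay between the short arm and the proximal long arm in median, and the differences between these groups of genes were not tested, since genes of one set of libraries are not replicates.

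Chromatin factors, those that act with TRIM28 and others, were read from a list of 26 genes, all tested. Of these 6 were higher, 8 lower and 12 not called (median log2 fold change 0.02), where 21.3% of all tested genes were higher and 20.5% lower. SETDB1, the methyltransferase of the complex, did not pass the test (0.07 ± 0.07, adjusted p = 0.46). Of the HP1 genes, CBX1 was lower (-0.14, adjusted p = 0.027). CBX3 (0.22, adjusted p = 0.119) and CBX5 (0.02, adjusted p = 0.730) did not pass. CHD3 was lower (-0.28, adjusted p = 2.5e-04), and CHD4 did not pass (0.09, adjusted p = 0.066). EHMT2, which writes H3K9 methylation in euchromatin, fell by 0.78 on the log2 scale (adjusted p = 5.3e-06), with its partner EHMT1 at -0.41 (adjusted p = 6.8e-05). ATRX, a remodeller of heterochromatin, rose (0.56 ± 0.04, adjusted p = 6.8e-07), as did DNMT1, the maintenance DNA methyltransferase (0.39 ± 0.04, adjusted p = 1.6e-05). Of the HUSH silencing complex and its partner MORC2, MORC2 and TASOR were lower (-0.35 and -0.18, adjusted p = 4.9e-04 and 0.037), and MPHOSPH8 (0.01 ± 0.05, adjusted p = 0.839) and PPHLN1 (-0.14 ± 0.06, adjusted p = 0.0773) did not pass the test.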

How the data were processed

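The deposited values are read counts, not normalized, for each gene (78932 Ensembl genes with GRCh38 coordinates and exon lengths), 1 column per culture. The submitters' processing notes name fastp 0.23.1, STAR 2.7.6a, featureCounts and GRCh38. The handling of strand, multiply mapped reads and duplicates is not given in the sources used here, and it decides how reads of overlapping or near-identical ZNF genes were assigned. A second deposited table, the authors' own list of differential genes, was not used.

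All genes were fitted together in edgeR 4.0.16 (R 4.3.3; TMM factors, glmQLFit and glmQLFTest, condition only). A gene entered the test with 10 or more counts in any 3 of 6 libraries. Called means a Benjamini-Hochberg adjusted p under 0.05, and a second threshold asked for 0.58 or more on the log2 scale in either direction. Each SE was taken from the fold change and the square root of its F statistic. P-values measure the spread among 3 cultures a group, which the labels call biological replicates. Named in full were the called genes with the largest changes (12 at most in each direction), the 5 highest in siNC and those within 300000 bases of TRIM28, and overlapping entries were named after their values were seen. The KRAB match allowed 2 letters to differ. The members, lists and tests were chosen with earlier results of these data known. The code was tested on simulated counts. Alternatives were scaling by RLE, by upper quartiles or by totals alone, DESeq2 1.42.0, limma-voom 3.58.1, other filters, leaving out each library, a replicate block, summed close libraries, a stricter threshold, and genes free of overlap. Figures used matplotlib 3.10.9.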

Additional observations from a re-analysis of the deposited data

How the results depend on the processing

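Of the 28 called genes, 13 kept their call and direction in every alternative fit that tested them (ZNF615, ZNF616, ZNF836, ZNF480, ZNF160, ZNF580, ZNF583, ZNF304, ZNF549, ZNF550, ZNF551, ZNF274 and ZNF544), 15 lost the call in at least 1, and none reversed. RLE factors and limma-voom gave 28 called genes, all among the 28, with 41.8% and 41.7% of all tested genes called. The median of the tested genes stayed between -0.12 and -0.20 throughout. DESeq2 called 16 genes (9 lower, 7 past both thresholds), all 16 among the 28, and 31.8% of all tested genes. An adjusted p under 0.01 left 14, with 29.2% of all tested genes called. The 16 genes overlapping no other entry held 3 called, 3 lower and 0 higher, against 41.8% of all tested genes called. Summing the closest libraries of each group left 19 called, 6 higher and 13 lower, with 32.1% of all tested genes called. Leaving out 1 library gave 18 to 23 called genes, 6 to 8 higher and 11 to 15 lower, with 17 to 22 of the 28 kept. In these fits 34.5% to 44.7% of all tested genes were called. The lowest count came without siNC replicate 3 (18 called, 11 lower, 17 kept), and the fewest higher genes without siNC replicate 1 (6). The uncalled ZNF132 ranged from -0.51 to 0.17 when 1 library was left out, the latter without siTRIM28 replicate 2, against -0.14 from all 6. Without a filter 25 of 96 genes were called, with ZNF416 added, against 17.4% of all genes in that fit. Deviations of same-numbered libraries gave correlations of 0.066, -0.025 and 0.051, and those of unlike-numbered libraries lay between -0.074 and 0.050. With 3 libraries a group such values cannot show whether the replicate numbers pair the cultures. With the replicate block 25 genes were called, all among the 28, ZNF28, ZNF71 and ZNF584 being lost, with 42.8% of all tested genes called. Depth limits the genes under 1 CPM, where a few counts decide the value, and reads may not have been assigned uniquely where genes overlap or share sequence. Why calls were lost was not tested.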
